A study of Homo sapiens with 6 samples.

Results

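The genes described here are 10 receptor tyrosine kinases of invasive breast cancer cells, namely AXL, EGFR, MET, ERBB2, ERBB3, IGF1R, EPHA2, FGFR1, DDR1 and DDR2. They were chosen by symbol, through the Ensembl identifiers of the GENCODE annotation, and are 10 of the 58395 genes in the table of raw counts. All 10 had a count in at least 2 of 3 libraries of a group and were tested, together with 23806 genes in all.

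Receptor tyrosine kinases span the plasma membrane, bind a ligand outside the cell and pair up, which lets their kinase domains phosphorylate tyrosines on each other. Adaptors such as GRB2 and SHC1 dock on these phosphotyrosines and pass the signal to the RAS and PI3K pathways, while ubiquitin ligases and phosphatases end it and send the receptor to the lysosome. In breast cancer, ERBB2 defines a clinical subtype, whereas EGFR, AXL, MET and EPHA2 are better known from triple-negative tumours, which lack the hormone receptors and ERBB2 amplification.

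RNA sequencing was used to compare MDA-MB-231 cells, an established human triple-negative line from a breast adenocarcinoma, after transfection with a non-targeting siRNA (siCTR, 3 libraries) or with an siRNA against CSRP2 (siCRP2, 3 libraries). CSRP2 encodes CRP2, a LIM-domain protein that binds and bundles actin filaments, and the comparison asks which transcripts depend on it. Cells of both groups were grown in the same medium in 6-well plates and, per the labels, were harvested 65 hours after transfection, whereas the study's methods give a slightly later time. The siCRP2 group stands for a single siRNA and a single cell line, so its effect cannot be told apart from other effects of that siRNA.

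The libraries held 17336798 to 39115778 counts, so that 1 count was worth 0.0256 to 0.0582 CPM, counts scaled to the library's TMM-adjusted total. The column names carry the codes 0412, 0611 and 1311, each shared by 1 library of each group, and values are given below in this order. CSRP2 had levels of 13.7, 11.7 and 11.4 CPM in siCTR and of 2.17, 1.78 and 1.89 CPM in siCRP2, a log2 fold change of -2.66 (SE 0.178, adjusted p = 2.4e-08 by edgeR's quasi-likelihood test). The labelled epithelial type was checked with 6 markers, whose summed level was 2330 to 2990 CPM in siCTR and 2460 to 2700 CPM in siCRP2, mostly keratins. CDH1, the E-cadherin gene among them, was at 14.3 to 21.0 CPM in siCTR and 26.8 to 37.5 CPM in siCRP2. Among 4 luminal markers, PGR was at 0 counts in all 6 libraries, ESR1 and FOXA1 had 4 and 5 counts over all 6, and GATA3 was present in every library. The 4 leukocyte markers summed to 29.9 to 39.5 CPM in siCTR and 9.32 to 11.1 CPM in siCRP2, nearly all of it CD14, with a single count of CD3E over all libraries. The 3 endothelial markers, mostly PECAM1, summed to 9.76 to 22.0 CPM in siCTR and 5.08 to 7.42 CPM in siCRP2, and the 3 fibroblast markers to 4.25 to 6.13 and 3.33 to 5.66 CPM. The 3 mesenchymal markers summed to 2920 to 5130 CPM in siCTR and 2460 to 3640 CPM in siCRP2, mostly VIM and FN1, while CDH2, N-cadherin, was at 0.641 to 1.38 and 2.44 to 2.54 CPM. The part of these markers in the results below was not tested. In bulk RNA, a lower level can be less RNA per cell or fewer cells that carry it, and these cannot be told apart.

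After CRP2 depletion the mRNA of AXL, DDR1 and FGFR1 was lower, and that of MET and ERBB3 was higher. EGFR, EPHA2, IGF1R, ERBB2 and DDR2 did not pass the threshold of an adjusted p under 0.05. Libraries of the same code deviated together, and with the code as a replicate block EGFR, EPHA2 and IGF1R were lower as well and DDR2 higher, giving 6 lower and 3 higher of 10. With that block 4229 of the 23806 genes tested were lower and 4644 higher. The block SE was 0.0649 for AXL, whose log2 differences within the codes ran from -1.41 to -0.72. It was 0.0629 for MET, where they ran from 0.27 to 0.33. Block p-values thus say little about a gene's own spread over 3 pairs. Without the block, the 3 lower genes of 10 stand beside 11.5% of all genes tested that were called lower, and the 2 higher genes beside 12.5% called higher. The count of higher genes was 1 with edgeR's exactTest, with filterByExpr or without siCTR 0412, and 0 without siCRP2 0611, siCRP2 1311 or siCTR 0611. The groups did not overlap for 7 of the 10 receptors, against 37.4% of all genes tested. These shares are not matched for level, since all 10 receptors but only 13196 of the 23806 genes tested had a mean of at least 1 CPM. The median log2 fold change over the 10 receptors was -0.19, and over all genes tested it was -0.02.

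**Figure D1:**
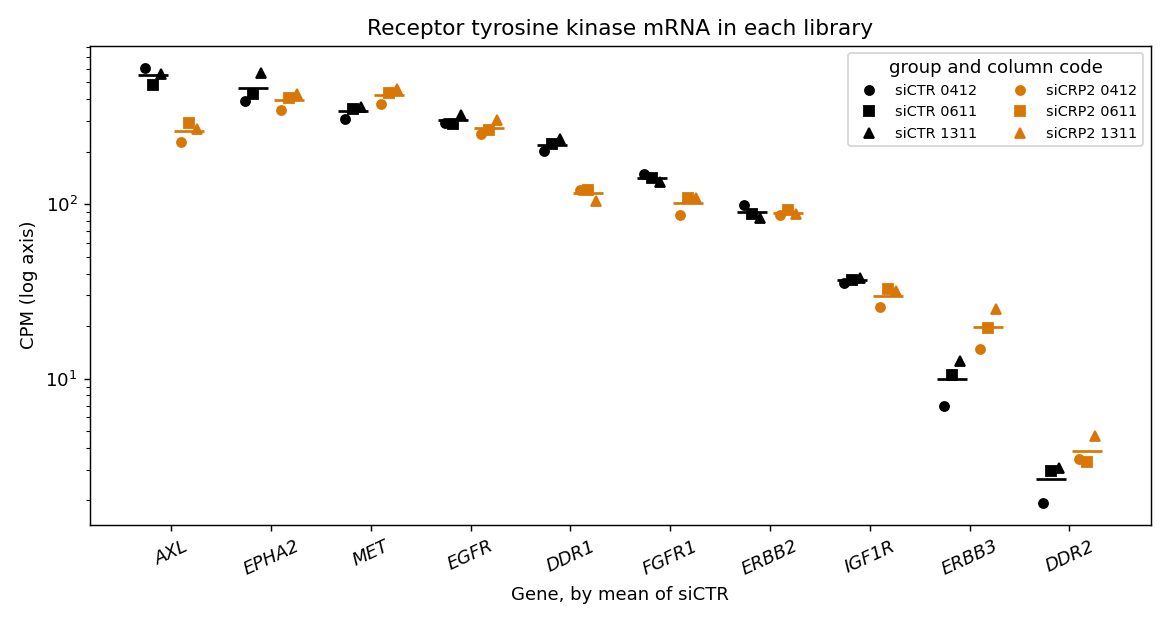
CPM on a log axis of each of the 10 receptors in the 3 siCTR libraries (black) and the 3 siCRP2 libraries (orange), with the marker shape giving the column code and the line giving the group mean. AXL, DDR1 and FGFR1 sit lower in all siCRP2 libraries than in any siCTR library, MET and ERBB3 sit higher, and the groups of EPHA2, EGFR and ERBB2 overlap.

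Levels of different genes were compared as RPKM, which is CPM per kilobase of merged exons. In siCTR the order was EPHA2 at a mean of 112 RPKM, AXL at 107, MET at 47.3, DDR1 at 24.1, EGFR at 19.0, ERBB2 at 8.76, FGFR1 at 8.26, IGF1R at 2.62, ERBB3 at 0.857 and DDR2 at 0.239 RPKM. The ranges over 3 libraries overlapped between EPHA2 and AXL and between ERBB2 and FGFR1, and were apart for the other 7 of 9 neighbouring pairs. EPHA2, AXL, MET, DDR1 and EGFR were the 5 highest of 58 human receptor tyrosine kinases, led by an ephrin receptor, the receptor of GAS6 and the receptor of hepatocyte growth factor. With the length of the longest transcript in place of merged exons, DDR1 came above MET with overlapping ranges and FGFR1 came above ERBB2.

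In siCRP2 the order of the mean levels was EPHA2 at 95.4 RPKM, MET at 58.3, AXL at 51.4, EGFR at 17.1, DDR1 at 12.7, ERBB2 at 8.63, FGFR1 at 5.90, IGF1R at 2.15, ERBB3 at 1.69 and DDR2 at 0.344 RPKM. MET thus stood above AXL, with ranges that overlapped, as did those of IGF1R and ERBB3. With the length of the longest transcript, DDR1 came above EGFR at 27.9 against 27.6 RPKM and ERBB3 above IGF1R at 3.16 against 2.45 RPKM, each with overlapping ranges. The 10 receptors held 79.9% ± 1.59 (SD, n = 3) of the summed RPKM of the 58 receptors in siCTR and 77.0% ± 1.87 (SD, n = 3) in siCRP2, and that sum was 413 ± 27.8 and 329 ± 23.2 RPKM. AXL made up 29.4, 23.9 and 24.6% of it in siCTR and 14.8, 16.7 and 15.3% in siCRP2. MET made up 10.7, 12.5 and 11.3% in siCTR and 17.2, 17.5 and 18.4% in siCRP2. The shares of AXL and MET did not overlap between the groups, whereas EPHA2 held 23.6 to 31.0% in siCTR and 27.8 to 30.2% in siCRP2. Since these are shares of 1 sum, the fall of AXL by itself raises the share of every other receptor.

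**Figure D2:**
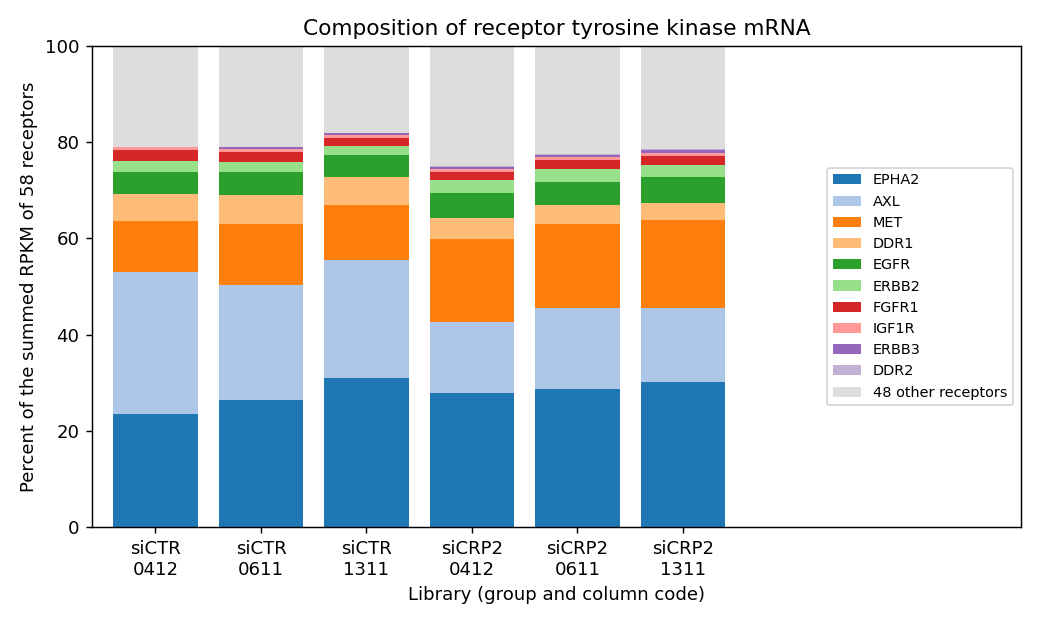
Percent of the summed RPKM of 58 receptor tyrosine kinases (y axis) held by each of the 10 receptors and by the 48 others, in each of the 6 libraries (x axis). The AXL band spans 23.9 to 29.4% in siCTR and 14.8 to 16.7% in siCRP2, and the MET band 10.7 to 12.5% and 17.2 to 18.4%.

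AXL lies at chr19:41219223-41261766 on the plus strand (GRCh38) and encodes the receptor of the vitamin K-dependent protein GAS6, known from mesenchymal and invasive cells. It was measured at 607, 481 and 560 CPM in siCTR and at 229, 293 and 269 CPM in siCRP2. Every siCRP2 library was lower than every siCTR library. Group means were 549 ± 63.5 and 264 ± 32.4 CPM (SD over 3 libraries, as for every ± below), and edgeR put the log2 fold change at -1.06 (SE 0.108, adjusted p = 3.1e-06). Within the codes 0412, 0611 and 1311 the log2 difference was -1.41, -0.72 and -1.06. The call held under all 14 alternative settings, with log2 fold changes of -1.17 to -0.97.

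The promoters of AXL, DDR1 and MET are shown, 250 bases before to 50 bases after the RefSeq start (GRCh38.p14), since these receptors changed with high levels and in opposite directions. Capitals mark GC boxes (GGGCGG, either strand) and the E-box (CACGTG, either strand). The AXL promoter at chr19:41218973-41219272, plus strand, holds 2 GC boxes in a window of 66.0% GC.
AXL: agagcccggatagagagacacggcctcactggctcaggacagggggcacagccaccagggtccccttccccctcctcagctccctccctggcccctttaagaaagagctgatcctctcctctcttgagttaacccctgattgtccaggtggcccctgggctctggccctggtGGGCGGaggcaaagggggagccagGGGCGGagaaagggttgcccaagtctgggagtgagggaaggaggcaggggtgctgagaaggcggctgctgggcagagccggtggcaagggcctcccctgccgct
The DDR1 promoter at chr6:30884269-30884568, plus strand, holds 1 GC box in 78.7% GC.
DDR1: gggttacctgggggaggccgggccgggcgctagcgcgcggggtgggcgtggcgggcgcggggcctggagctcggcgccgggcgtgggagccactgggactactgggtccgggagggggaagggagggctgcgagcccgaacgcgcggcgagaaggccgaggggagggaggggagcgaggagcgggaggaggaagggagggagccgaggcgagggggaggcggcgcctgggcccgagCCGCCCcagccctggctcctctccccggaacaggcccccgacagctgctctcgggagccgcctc
The MET promoter at chr7:116671946-116672245, plus strand, holds 3 GC boxes and 1 E-box in 69.3% GC.
MET: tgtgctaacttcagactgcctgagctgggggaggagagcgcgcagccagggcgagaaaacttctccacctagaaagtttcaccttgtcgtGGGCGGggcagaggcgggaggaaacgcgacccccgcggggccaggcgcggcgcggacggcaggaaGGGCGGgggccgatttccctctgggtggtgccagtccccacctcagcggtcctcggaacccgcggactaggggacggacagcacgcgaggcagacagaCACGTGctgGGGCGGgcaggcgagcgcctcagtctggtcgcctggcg

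RefSeq promoters were matched for 7 of the 10 receptors, and those of ERBB2, ERBB3 and FGFR1 were not analysed here. EGFR held 3 GC boxes, IGF1R 2, EPHA2 1 and DDR2 none, the last in a window of 44.7% GC. None of the 7 held the AP-1 letters (TGANTCA), the TATA box letters (TATAAA) or a CArG box, the motif bound by serum response factor, on either strand. Over 14702 promoters of the same length, 62.66% held a GC box, 8.95% the E-box, 5.36% the AP-1 letters, 9.41% the TATA letters and 1.14% a CArG box, and the median GC content was 64.0%. The GC box of the AXL, DDR1 and MET promoters is thus one that most promoters hold.

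The other 2 members of the AXL family moved in different directions. MERTK, the phagocytic receptor of this family, was measured at 15.6, 21.6 and 19.2 CPM in siCTR and at 12.1, 13.6 and 15.5 CPM in siCRP2, groups that did not overlap, with a log2 fold change of -0.44 (SE 0.145, edgeR adjusted p = 0.033). TYRO3 was measured at 19.7, 20.4 and 21.5 CPM in siCTR and at 27.6, 32.8 and 30.0 CPM in siCRP2, all higher, with a log2 fold change of 0.55 (SE 0.112, edgeR adjusted p = 0.00148). The TYRO3 call held under all 14 alternatives. The MERTK call held under 9 of 14 and was lost with limma-voom (adjusted p = 0.0817) and without siCRP2 0412 (0.12), siCRP2 0611 (0.0933), siCTR 0611 (0.186) or siCTR 1311 (0.0605). With the replicate block MERTK was lower at an adjusted p of 4.0e-05. The ligands of the family did not pass the threshold, with GAS6 at 277 ± 30.9 and 251 ± 12.3 CPM (log2 fold change -0.14, SE 0.0923, edgeR adjusted p = 0.306) and PROS1, protein S, at 44.7 ± 8.11 and 37.8 ± 3.96 CPM (-0.24, SE 0.13, adjusted p = 0.213). With the column code as a replicate block, PROS1 was lower at an adjusted p of 0.011, and without siCTR 1311 at 0.0165.

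DDR1 and DDR2 encode the discoidin domain receptors, which bind collagens, though not the same set of them. DDR1, at chr6:30876421-30900156, was measured at 201, 222 and 237 CPM in siCTR and at 121, 120 and 105 CPM in siCRP2. The groups were well apart, and the log2 fold change was -0.93 (SE 0.0912, edgeR adjusted p = 1.6e-06). It held under all 14 alternatives, from -0.99 to -0.87, and was -0.73, -0.89 and -1.17 within the codes. DDR2, at chr1:162631373-162787405, had much lower levels of 1.94, 2.97 and 3.07 CPM in siCTR and 3.44, 3.33 and 4.68 CPM in siCRP2. These groups did not overlap either, but the log2 fold change of 0.55 (SE 0.237) had an edgeR adjusted p of 0.11. It rested on 49 to 183 counts per library. With the replicate block DDR2 was higher, with a log2 fold change of 0.54 and an adjusted p of 0.00846. The ratio of DDR1 to DDR2 RPKM was 126, 90.8 and 94.1 in siCTR and 42.9, 43.8 and 27.4 in siCRP2, ranges that did not overlap.

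The collagen genes listed as ligands of DDR1 or DDR2 did not move together. COL1A2 was measured at 110, 134 and 160 CPM in siCTR and at 46.8, 59.6 and 58.9 CPM in siCRP2, a log2 fold change of -1.29 (SE 0.142, edgeR adjusted p = 9.0e-05). COL5A1 was lower too, from 546 ± 96.8 to 386 ± 59.5 CPM (-0.50, SE 0.148, adjusted p = 0.0358), though not without siCRP2 1311 (0.0528) or siCTR 0611 (0.101). COL1A1, which pairs with COL1A2 in type I collagen, was higher at 21.0 ± 2.18 against 13.4 ± 2.07 CPM (0.64, SE 0.139, adjusted p = 0.00239). Of the basement membrane chains, COL4A2 was higher at 260 ± 22.3 against 201 ± 24.8 CPM (0.37, SE 0.0988, adjusted p = 0.00985), though not without siCRP2 0412 (0.0658), siCRP2 0611 (0.0575) or siCTR 0611 (0.0783). COL4A1 (log2 fold change 0.15, adjusted p = 0.33), COL5A2 (0.41, 0.276) and COL3A1 (-1.38, 0.217) did not pass by edgeR. With the replicate block COL4A1 was higher (adjusted p = 0.0491) and COL3A1 lower (1.1e-05), and COL3A1 was also lower without siCTR 0412 (0.00403) and with no filter on low counts (0.001).

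FGFR1, at chr8:38400215-38468834 on the minus strand, encodes a fibroblast growth factor receptor that signals through the docking protein FRS2. It was measured at 150, 141 and 135 CPM in siCTR and at 87.1, 109 and 108 CPM in siCRP2. All siCRP2 libraries were lower, the 0412 library most, and the log2 fold change was -0.48 (SE 0.0961, edgeR adjusted p = 0.00123). The call held under all 14 alternatives, from -0.57 to -0.39. Of its relatives, FGFR4 went from 2.94 ± 1.46 to 1.30 ± 0.112 CPM (log2 fold change -1.16, SE 0.328, adjusted p = 0.0169), a call that was lost with limma-voom (0.0689) and without siCRP2 0412 (0.053), siCRP2 0611 (0.079), siCRP2 1311 (0.0537) or siCTR 1311 (0.121, log2 fold change -0.69). With the replicate block FGFR4 was lower at an adjusted p of 6.0e-07. FGFR3 was at 1.48 and 1.58 CPM (0.07, adjusted p = 0.891).

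Around FGFR1, the ligand FGF1 and the adaptor FRS2 were higher. FGF1 was measured at 1.78, 1.86 and 2.24 CPM in siCTR and at 5.98, 5.63 and 5.86 CPM in siCRP2, a log2 fold change of 1.57 (SE 0.202, edgeR adjusted p = 2.3e-05). FRS2 was measured at 36.4, 38.8 and 43.6 CPM in siCTR and at 65.6, 62.1 and 69.0 CPM in siCRP2, with 0.73 (SE 0.0981, adjusted p = 3.8e-05). Neither gene's groups overlapped, and both calls held under all 14 alternatives. FGF5 was at 6.44 ± 3.03 and 7.09 ± 1.12 CPM (0.13, adjusted p = 0.83). FGFRL1, a decoy receptor that lacks the kinase domain, went from 56.4 ± 2.84 to 46.4 ± 4.41 CPM (-0.28, SE 0.0987, adjusted p = 0.0494), a call that held under 6 of 14 alternatives, with adjusted p-values up to 0.181 (without siCRP2 0412). It was also lost without siCRP2 0611 (0.0683), siCRP2 1311 (0.0666), siCTR 0611 (0.13) or siCTR 1311 (0.118).

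**Figure D3:**
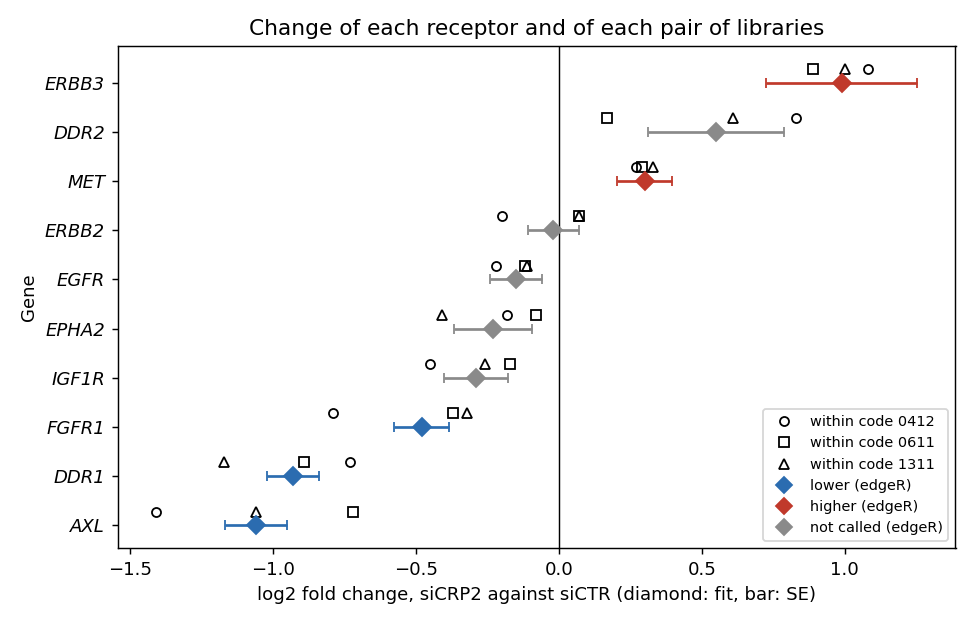
Log2 fold change of siCRP2 against siCTR (x axis) for each of the 10 receptors: diamonds and bars are edgeR's estimate and its SE, and open symbols are the log2 difference within each column code. The 3 pairs of AXL lie at -1.41, -0.72 and -1.06 and those of ERBB3 at 1.08, 0.89 and 1.00, whereas those of ERBB2 lie on both sides of 0.

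MET, at chr7:116672196-116798377 on the plus strand, encodes the receptor of hepatocyte growth factor, which drives cell scattering. It was measured at 310, 352 and 362 CPM in siCTR and at 375, 432 and 456 CPM in siCRP2. The groups did not overlap, although the lowest siCRP2 library was close to the highest siCTR library, and the difference within the codes was 0.27, 0.29 and 0.33 on the log2 scale. The log2 fold change was 0.30 (SE 0.0956, edgeR adjusted p = 0.0281). The call was lost with edgeR's exactTest (adjusted p = 0.0556), with filterByExpr (0.0731) and without siCRP2 0611 (0.169), siCRP2 1311 (0.251), siCTR 0412 (0.0906) or siCTR 0611 (0.0713). It held with the replicate block, where the SE was 0.0629 and the adjusted p 9.4e-06. The ratio of MET to AXL RPKM was 0.363, 0.520 and 0.459 in siCTR and 1.16, 1.05 and 1.20 in siCRP2, so that AXL mRNA exceeded MET mRNA in every siCTR library and in no siCRP2 library.

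The ligand HGF had 0 counts in all 6 libraries, which allows a level of up to 0.0768 to 0.175 CPM (3 counts) per library for reads that the counting could assign to it. MST1R, the relative of MET that binds macrophage-stimulating protein, went the other way, from 30.0 ± 1.39 to 23.6 ± 1.62 CPM (log2 fold change -0.35, SE 0.109, edgeR adjusted p = 0.0274). That call was lost without siCRP2 1311 (0.119), siCTR 0611 (0.103) or siCTR 1311 (0.0541). With the replicate block MST1R was lower at an adjusted p of 0.00022. SPINT2, an inhibitor of the proteases that activate HGF, went from 225 ± 10.7 to 179 ± 9.12 CPM (-0.33, SE 0.0829, adjusted p = 0.00755), and lost its call without siCRP2 1311 (0.056).

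EGFR, ERBB2 and ERBB3 form dimers with each other: EGFR binds EGF and its relatives, ERBB2 has no known ligand, and ERBB3 binds neuregulins and has little kinase activity of its own. ERBB3, at chr12:56076799-56103505, was measured at 6.95, 10.5 and 12.6 CPM in siCTR and at 14.7, 19.5 and 25.2 CPM in siCRP2. The groups did not overlap, and in both of them the 0412 library was the lowest and the 1311 library the highest. The log2 fold change was 0.99 (SE 0.264, edgeR adjusted p = 0.0302), and 1.08, 0.89 and 1.00 within the codes. The call was lost without siCRP2 0611 (adjusted p = 0.0937), siCRP2 1311 (0.0558) or siCTR 0611 (0.0834). With the replicate block its SE was 0.104 and its adjusted p 5.3e-20.

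EGFR, at chr7:55019017-55211628, was measured at 292, 289 and 326 CPM in siCTR and at 252, 265 and 303 CPM in siCRP2. The groups overlapped, each siCRP2 library was below the siCTR library of its code, and the log2 fold change of -0.15 (SE 0.0917) had an edgeR adjusted p of 0.28. With the replicate block EGFR was lower at an adjusted p of 0.0472. ERBB2, at chr17:39687914-39730426, was measured at 99.5, 88.1 and 83.5 CPM in siCTR and at 86.5, 92.6 and 87.9 CPM in siCRP2. Its groups overlapped, with a log2 fold change of -0.02 (SE 0.0893, edgeR adjusted p = 0.895), no call under any alternative and a value of 0.05 without siCTR 0412. MIEN1 on the opposite strand shares 571 bases (5.532%) of the merged ERBB2 exons, and the strand setting of the counting is not given in the sources used here. ERBB4, the remaining family member, was close to the limit of detection, with 27 counts over siCTR and 15 over siCRP2 (log2 fold change -1.19, edgeR adjusted p = 0.332, and 0.0306 with the replicate block). The ratio of ERBB3 to EGFR RPKM was 0.0324 to 0.0527 in siCTR and 0.0792 to 0.113 in siCRP2, and that of ERBB3 to ERBB2 was 0.0616 to 0.133 and 0.149 to 0.252. Even so, ERBB3 stayed the least abundant of these 3 receptors per length.

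Of the EGFR ligands, EGF was lower, at 3.75, 4.37 and 3.48 CPM in siCTR and 1.53, 0.986 and 0.922 CPM in siCRP2 (log2 fold change -1.78, SE 0.258, edgeR adjusted p = 7.6e-05), a call that held under all 14 alternatives. The more abundant ligands did not pass the threshold. TGFA was at 82.9 ± 10.4 and 79.0 ± 10.8 CPM (-0.07, adjusted p = 0.722), AREG, amphiregulin, at 114 ± 46.5 and 93.0 ± 21.2 CPM (-0.30, 0.686), and HBEGF at 90.3 ± 25.9 and 123 ± 21.1 CPM (0.44, 0.285). EREG, epiregulin, was at 27.5 ± 7.91 and 18.9 ± 3.83 CPM (-0.54, 0.133), and BTC, betacellulin, at 2.92 ± 0.513 and 1.94 ± 0.553 CPM (-0.62, 0.107). With the replicate block HBEGF was higher (adjusted p = 1.9e-11), and EREG (3.5e-08) and BTC (0.00841) were lower. HBEGF also passed without siCTR 1311 (0.00621) and EREG without siCTR 0412 (0.0142), with DESeq2 (0.0269) and with no filter on low counts (0.0002). Of the neuregulins, which bind ERBB3, NRG2 went from 1.57 ± 0.471 to 0.635 ± 0.224 CPM (-1.30, SE 0.345, adjusted p = 0.0101), but not without siCRP2 1311 (0.0557) or siCTR 0611 (0.0708). NRG1 was at 65.3 ± 22.6 and 55.2 ± 14.0 CPM (-0.24, adjusted p = 0.695) and was lower with the replicate block (0.00491).

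EPHA2, at chr1:16124337-16156069 on the minus strand, encodes a receptor of membrane-bound ephrin-A ligands. It was measured at 393, 430 and 569 CPM in siCTR and at 348, 408 and 430 CPM in siCRP2. The groups overlapped, with the 1311 library the highest of each, and the log2 fold change was -0.23 (SE 0.136, edgeR adjusted p = 0.268). EPHA2 was lower with the replicate block (log2 fold change -0.22, adjusted p = 0.00168) and with no filter on low counts (0.045). Of the 14 ephrin receptors, 11 were tested, 4 were lower and 0 higher, where 11.5% and 12.5% of all genes tested were. EPHB2 was measured at 91.8, 85.5 and 89.4 CPM in siCTR and at 45.3, 50.7 and 47.4 CPM in siCRP2 (-0.89, SE 0.0873, adjusted p = 1.5e-06). EPHB4 was measured at 101, 95.0 and 104 CPM and at 64.1, 72.8 and 70.2 CPM (-0.54, SE 0.087, adjusted p = 0.00022). Both calls held under all 14 alternatives. EPHB6 (-2.60, adjusted p = 0.00043) and EPHA5 (-1.02, adjusted p = 0.0167) were lower at low levels, and EPHA5 not without siCRP2 1311 (0.0537) or siCTR 0611 (0.0646). EPHA4 (-0.41, adjusted p = 0.29) was lower with the replicate block (0.0065), without siCTR 1311 (0.00531) and with no filter on low counts (0.0275), and EPHB3 (-0.13, 0.742) was not called.

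Among the ephrin-A ligands, EFNA5 went from 32.2 ± 1.63 to 25.4 ± 3.21 CPM (log2 fold change -0.34, SE 0.115, edgeR adjusted p = 0.0419). That call was lost with exactTest (0.0617), with limma-voom (0.0551), with counts thinned to the smallest library (0.0508) and without siCRP2 0412 (0.159), siCRP2 1311 (0.0982) or siCTR 0611 (0.158). EFNA1 (-0.21, adjusted p = 0.639), EFNA3 (-0.02, 0.975) and EFNA4 (-0.25, 0.298) did not pass, and EFNA1 was lower without siCTR 0412 (0.0169).

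IGF1R, at chr15:98648539-98964530, encodes the receptor of insulin-like growth factors. It was measured at 35.2, 36.6 and 37.9 CPM in siCTR and at 25.7, 32.5 and 31.6 CPM in siCRP2. The groups did not overlap, and the log2 fold change of -0.29 (SE 0.111) had an edgeR adjusted p of 0.0739. IGF1R was lower with filterByExpr (adjusted p = 0.037), with no filter on low counts (0.0452) and with the replicate block (0.00125). Its relative INSR, the insulin receptor, was at 32.8 ± 0.875 and 36.2 ± 3.60 CPM (0.15, adjusted p = 0.36). The ligands IGF1 and IGF2 were listed at 0 counts in all 6 libraries. IGF2 overlaps the readthrough gene INS-IGF2, and no limit is given for it, since the counting may leave out reads that genes share.

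**Figure D4:**
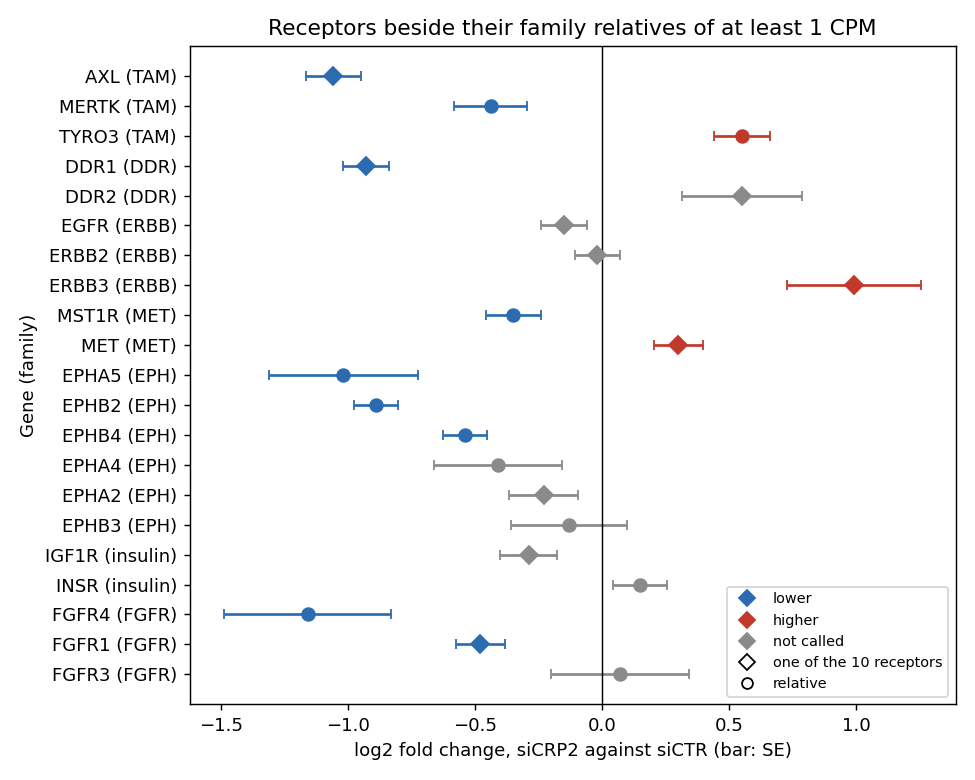
Log2 fold change with SE (x axis) of the 10 receptors (diamonds) and of their family relatives with a mean of at least 1 CPM (circles), grouped by family and coloured by edgeR's call. Genes lie on both sides of 0 in every family shown except the ephrin receptors, where all lie to the left. EPHA10 (0.25, not called), at means of 0.922 and 1.07 CPM, fell just short of the cut and is not shown. EPHB6 (-2.60, lower), at means of 1.54 and 0.278 CPM, was below the cut and is not shown either, nor are tested relatives of still fewer counts.

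In an earlier analysis of these counts the heptamer GCCTCAC was picked from the fold changes themselves, as a sequence more frequent in transcripts that fell. Its occurrence here is a description, and its part in the result of any receptor was not tested. It stood in 24.2% of 11887 canonical protein-coding transcripts of at least 1 CPM and in 11.3% of 11751 of their 3' untranslated regions. Of the 10 receptors, AXL, EGFR, ERBB2 and IGF1R held it, of which AXL fell, and MET, ERBB3, EPHA2, FGFR1, DDR1 and DDR2 did not, of which DDR1 and FGFR1 fell. These are the calls without the replicate block. With it, EGFR and IGF1R, which held the heptamer, and EPHA2, which did not, were lower as well. The 3' untranslated sites of EGFR and IGF1R are shown in 30 bases each (GRCh38, plus strand) with the heptamer in capitals, at chr7:55207575-55207581 and chr7:55208755-55208761 in EGFR and at chr15:98959150-98959156 in IGF1R.
EGFR, site 1: ctggaagggagGCCTCACaggaggatgacc
EGFR, site 2: ttaccacccctGCCTCACaactgcagacat
IGF1R: gtggttgagaaGCCTCACcctctctttccc

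The wider pathway was described with 5 lists, to be read beside all genes tested, of which 11.5% were lower and 12.5% higher with a median log2 fold change of -0.02. Of 48 other receptor tyrosine kinases, 38 were tested, 12 were lower and 3 higher, with a median log2 fold change of -0.53. PDGFRB, a receptor of platelet-derived growth factor, was measured at 20.4, 19.2 and 20.2 CPM in siCTR and at 6.51, 5.07 and 6.40 CPM in siCRP2 (-1.73, SE 0.142, edgeR adjusted p = 2.0e-07). CSF1R, the receptor of macrophage colony-stimulating factor, went from 5.58 ± 1.01 to 1.11 ± 0.445 CPM (-2.40, SE 0.289, adjusted p = 1.6e-05). It is also a macrophage gene, and CD14 moved with it, from 29.7 to 38.9 CPM in siCTR to 9.09 to 10.4 CPM in siCRP2. ROR1, a WNT5A receptor, was higher, at 59.5, 52.5 and 54.3 CPM in siCTR and 95.6, 93.7 and 91.6 CPM in siCRP2 (0.76, SE 0.0868, adjusted p = 7.5e-06). Beside ROR1 and TYRO3, STYK1 was the remaining higher gene (0.89, adjusted p = 0.00022). The calls of PDGFRB, CSF1R and ROR1 held under all 14 alternatives, whereas the list's count of lower genes was 7 without siCRP2 1311 and without siCTR 0611.

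Of 34 ligands, 26 were tested, 5 were lower and 3 higher, with a median of -0.25. With the replicate block the counts were 10 and 5, and 2 were lower without siCRP2 1311 or siCTR 0611 and 8 without siCTR 0412. Counts with the block stand beside 4229 lower and 4644 higher of all 23806 genes tested. Of 18 extracellular modulators, 17 were tested, 2 were lower, namely SPINT2 and FGFRL1, and 1 was higher, with a median of -0.12. The higher one was the HGF activator gene HGFAC (log2 fold change 1.33, edgeR adjusted p = 0.0257), at a mean below 1 CPM over both groups. The modulators' counts with the block were 6 and 5. Without siCRP2 1311 none of the modulators passed in either direction, without siCRP2 0611 or siCTR 0611 the counts were 1 lower and 0 higher, and without siCTR 1311 2 were higher.

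The counts of adaptors and turnover genes stand beside the same shares of all genes tested, 11.5% lower and 12.5% higher, not matched for level. Their counts with the replicate block stand beside 4229 lower and 4644 higher of 23806 genes. All 32 adaptors and proximal signalling genes were tested, 1 was lower and 9 higher, with a median of 0.17, and with the replicate block 4 were lower and 15 higher. NCK2, an SH2 and SH3 adaptor that links receptors to actin, was the lower gene, from 52.6 ± 3.21 to 24.9 ± 1.63 CPM (-1.08, SE 0.102, edgeR adjusted p = 1.0e-06). Beside FRS2, VAV2, a guanine nucleotide exchange factor, went from 63.4 ± 1.74 to 91.1 ± 1.95 CPM (0.52, SE 0.0828, adjusted p = 0.00017) and HRAS from 51.0 ± 2.03 to 74.5 ± 2.97 CPM (0.55, SE 0.0873, adjusted p = 0.00018). GRB2, the adaptor that most of these receptors share, was at 165 ± 9.24 and 168 ± 14.8 CPM (0.03, adjusted p = 0.864).

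All 28 genes of receptor turnover and attenuation were tested, 3 were lower and 8 higher, with a median of 0.14, and with the replicate block 7 were lower and 13 higher. PTPN1, a phosphatase that acts on the insulin receptor and other kinases, was measured at 212, 208 and 211 CPM in siCTR and at 104, 141 and 131 CPM in siCRP2 (-0.75, SE 0.101, edgeR adjusted p = 4.0e-05). ERRFI1, an inhibitor of the EGFR kinase, was measured at 759, 1000 and 714 CPM and at 515, 557 and 461 CPM (-0.69, SE 0.125, adjusted p = 0.00124). EPS15, an endocytic adaptor, was higher, from 104 ± 2.34 to 154 ± 12.0 CPM (0.57, SE 0.0851, adjusted p = 9.5e-05), as was SOCS5, from 42.2 ± 1.41 to 61.2 ± 2.56 CPM (0.54, SE 0.0909, adjusted p = 0.00031). The remaining lower gene was EPN1, an endocytic adaptor of the epsin family (-0.43, adjusted p = 0.00154). The calls of NCK2, VAV2, HRAS, PTPN1, ERRFI1, EPS15 and SOCS5 held under all 14 alternatives, and the turnover list's count of higher genes was 5 without siCRP2 0611 or siCRP2 1311, beside 3 and 4 lower genes.

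**Figure D5:**
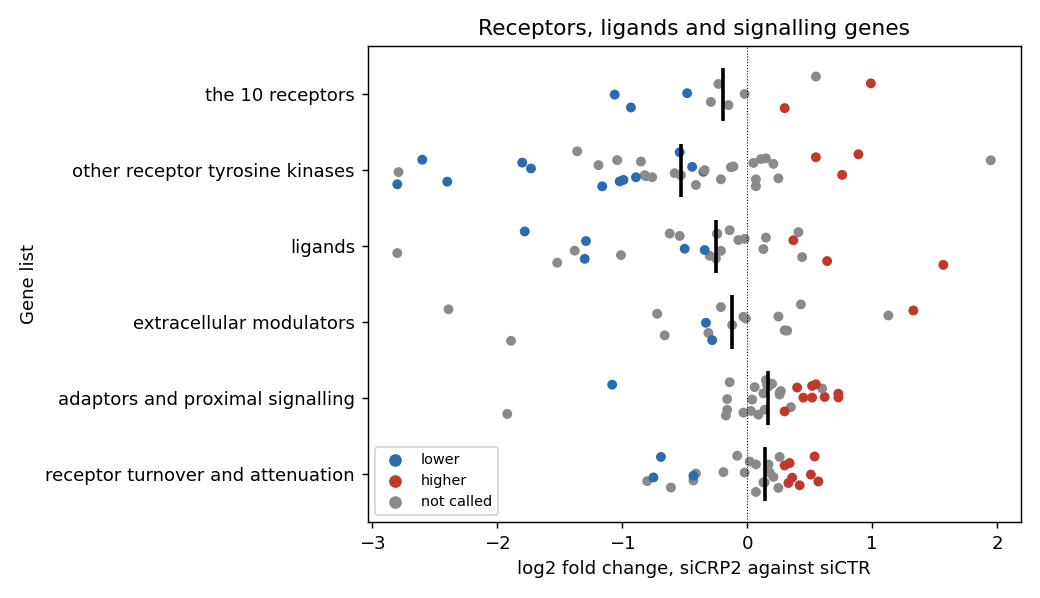
Log2 fold change of siCRP2 against siCTR (x axis) of the tested genes of each list (1 point per gene, coloured by edgeR's call), with a black line at the list's median. The medians are -0.19 for the 10 receptors, -0.53 for the other receptor tyrosine kinases, -0.25 for ligands, -0.12 for extracellular modulators, 0.17 for adaptors and 0.14 for turnover genes.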

How the data were processed

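Bulk RNA of MDA-MB-231 cells was measured in 6 libraries, 3 per group, which the study calls biological replicates. The deposited file holds raw gene counts that the authors made by aligning reads with STAR to GRCh38. Which STAR version, annotation and strand setting were used is not given in the sources used here. The labels name a standard mRNA library kit and the study's methods a stranded one. Counts were tested in R 4.3.3 with edgeR 4.0.16 (TMM scaling, glmQLFit with robust estimation, glmQLFTest, group as the only term) on the 23806 genes counted in 2 or more of 3 libraries of either group, with Benjamini-Hochberg adjustment over all of them. This fit, and no other step, was tested on simulated counts, which were drawn without an effect of the column code. Genes were called at an adjusted p under 0.05. RPKM used merged exon lengths of GENCODE 44, and 641 of 58395 genes had no entry there. TMM factors were 0.98903 to 1.0304.

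Columns were mapped to groups by name, and 0 columns of values were left unused. No replicate pair was a copy (chi-square per degree of freedom of 13.7 to 53.6). Over 10787 genes averaging 5 CPM or more, deviations of libraries of the same column code correlated at 0.712, 0.452 and 0.737, and of different codes at 0.0984 or less, so the codes pair the libraries. The codes are in the column names only and do not appear among the labels. Alternatives were another scaling, DESeq2 1.42.0, limma-voom (limma 3.58.1), exactTest, 2 other filters, thinned counts, the replicate block and leaving out each library. Named genes were the 10 receptors, CSRP2, up to 4 genes per list with the smallest p among those called at a mean of at least 1 CPM, and ligands at such a mean. Family relatives, CD14, ERBB4, STYK1, HGFAC, GRB2, EPN1 and the ligands at 0 were named after their values were seen. The receptors, lists and the heptamer were chosen with earlier results of these data known. The heptamer sites of AXL are not reported here.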

Additional observations from a re-analysis of the deposited data

How the results depend on the processing

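The numbers of genes called lower and higher, 2735 and 2987, became 4229 and 4644 with the replicate block, and ran from 2048 to 2888 and from 1933 to 3128 when each library was left out, with 1933 higher without siCRP2 1311. Of the 10 receptors, 6 were lower and 3 higher with the block and 5 were lower with no filter on low counts, while 1 was higher with exactTest and with filterByExpr. Leaving out each library gave 0 to 2 higher receptors, with 0 without siCRP2 0611, siCRP2 1311 or siCTR 0611 and 1 without siCTR 0412, and 3 lower receptors each time. For the lists, the same range was 7 to 12 lower other receptor tyrosine kinases, 2 to 8 lower and 2 to 4 higher ligands, 0 to 3 lower and 0 to 2 higher modulators, and 5 to 9 higher turnover genes. With the block, 10 ligands were lower and 5 higher, 6 modulators lower and 5 higher, 4 adaptors lower and 15 higher, and 7 turnover genes lower and 13 higher. Lower modulators numbered 4 with DESeq2, 4 with no filter and 1 with thinned counts, and higher modulators 2 with no filter. Lower adaptors numbered 3 with filterByExpr, and lower turnover genes 5 with DESeq2 and with exactTest. The cause of these differences was not tested. The block changed the call of EGFR, IGF1R, EPHA2 and DDR2 among the 10 receptors, and of ERBB4, EPHA4, PTK7 and LMTK3, each then lower, among the other 38 tested. Several calls that were lost under other alternatives held with the block. These were MET, ERBB3, MERTK, MST1R, FGFR4, EPHA5, EFNA5, NRG2, COL4A2, COL5A1, SPINT2 and FGFRL1.

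Over all 14 alternatives, the log2 fold changes ran from -0.34 to 0.11 for EPHB3, -0.20 to 0.03 for TGFA, -0.46 to 0.07 for NRG1, -0.48 to 0.01 for EFNA1, -0.23 to 0.19 for EFNA3 and -0.14 to 0.58 for FGF5. Values that changed sign belonged to genes that were not called: ERBB2 was 0.05 and EPHB3 0.11 without siCTR 0412, FGFR3 -0.08 without siCRP2 0412 and -0.03 without siCTR 1311, TGFA 0.02 without siCRP2 0412 and 0.03 without siCTR 0611, EFNA3 0.19 without siCRP2 1311 and 0.07 without siCTR 1311, and without siCTR 1311 NRG1 was 0.07, EFNA1 0.01 and FGF5 -0.14. Depth limits genes of few counts, such as DDR2 at 49 to 183 counts per library and ERBB4 at 42 counts in all.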
